A study of Homo sapiens with 8 samples.

Results

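Integrins and laminins are encoded by 38 of the 28265 RefSeq genes in the count tables. These genes were chosen by symbol alone, with no measured value in the rule: 18 integrin alpha chains, 8 integrin beta chains and 12 laminin chains. Of these, 37 are described here. They lie on 15 chromosomes. The study asked whether inflachromene (ICM), a small molecule that binds the chromatin proteins HMGB1 and HMGB2, brings IMR90 cells to a state like senescence; IMR90 is a human lung fibroblast line of finite lifespan. RNA was profiled by factory RNA-Seq, which aims at RNA made at transcription factories and so at recent transcription. Control cells carry the label young and are low-passage wild-type IMR90, and treated cells were exposed to ICM for 3 or 6 days; each of these conditions has 2 libraries. The last 2 libraries are labelled MetaICM and are described as low-passage cells given metaICM. What the MetaICM treatment was is not given in the sources used here. The labels name no dose and no vehicle; the study used a single ICM concentration for its profiles of new RNA at both times, and DMSO in the controls of some of its other assays. The labels describe whole-cell lysis and poly(A) selection for all 8 libraries, and reads on exons were counted, so new and older transcripts of a gene cannot be told apart here. All cells derive from this cell line and nothing says that the 2 libraries of a condition came from separate cultures, so the p-values measure only the spread between these libraries.

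Integrins are heterodimers of an alpha and a beta chain that span the plasma membrane, bind matrix proteins outside the cell and connect to actin inside it through adaptors such as talin and kindlin. The alpha chain largely sets the ligand: collagens, laminins, or the RGD sequence of fibronectin, vitronectin and latent TGF-beta. Laminins are trimers of an alpha, a beta and a gamma chain that polymerize into the sheet of the basement membrane, and they are ligands of integrins. Fibroblasts rely on collagen and fibronectin receptors, and they secrete laminin chains as well.

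The libraries held between 12095123 and 23166405 counted read pairs, of which the 37 genes took between 0.718 and 1.05%. Across genes, the log2 CPM of replicates had a Pearson correlation between 0.99 and 0.997, and the control pair differed most, with a chi-square of 24.8 per gene against 5.81 to 11.6 in the treated pairs. All 10 fibroblast markers examined were above 1 FPKM (counted pairs per kilobase of exon, scaled for depth with TMM factors). Of the other marker lists, DES, MYH11 and ACTG2 (muscle), KRT8, KRT18 and KRT19 (epithelial), CD68 (leukocyte), TEK (endothelial) and GP1BA (platelet) were above 1 FPKM in at least 1 library, while MYOD1, CD3E, NKX2-1 and GP9 had no count in any library. The summed level of the fibroblast list lay between 4641 and 4730 FPKM in control, between 2745 and 3044 after 3 days, between 2403 and 2432 after 6 days and between 4447 and 4670 in MetaICM. Its members did not all move alike. COL1A1, COL1A2, PDGFRA, PDGFRB, THY1 and DCN were called lower than control at both ICM times, and LUM after 3 days only. In MetaICM, VIM was called higher and FAP lower than control. In such bulk samples fewer cells of a kind and less RNA per cell cannot be told apart.

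Of the 37 genes, 27 passed the filter on low counts in all 5 comparisons and 2 more (ITGA2B, ITGB4) in some of them. The remaining 8 were never tested, since no library held more than 11 counts of any of them: ITGAD, ITGAL, ITGAM, ITGAX, ITGB2, ITGB6, ITGB7 and LAMC3. Passing the filter depends on the level in the libraries compared, so counts below refer to the genes tested and not to all 37. A gene was called at an adjusted p under 0.05 and an absolute log2 fold change above 0.6. Over the 5 comparisons, 21 genes were called at least once. The share of all genes called at least once is not given here, so this number has no background to be set against. Reads of some genes are uncertain because counting ignored strand: 1571 of the 7673 exon bases of ITGA4 also lie in CERKL on the opposite strand, as do 1469 of the 2806 bases of ITGB7 in ZNF740.

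The promoters of ITGA11, ITGB8 and LAMA4 are shown because these 3 genes were called lower than control in every treated condition. Each sequence and its coordinates come from the RefSeq promoter table (GRCh38.p14). Each is written 5′ to 3′ on the gene's strand and has 1 exact match in GRCh37. For ITGA11 (chr15:68432164-68432413, minus strand) and ITGB8 (chr7:20330650-20330899, plus strand) the 250 bases before the start are given. For LAMA4 (chr6:112254716-112254817, minus strand) the first 102 of these bases are given, since the counted gene model begins 148 bases before the RefSeq start. Capitals mark matches to GGGCGG (GC box) on either strand.
ITGA11: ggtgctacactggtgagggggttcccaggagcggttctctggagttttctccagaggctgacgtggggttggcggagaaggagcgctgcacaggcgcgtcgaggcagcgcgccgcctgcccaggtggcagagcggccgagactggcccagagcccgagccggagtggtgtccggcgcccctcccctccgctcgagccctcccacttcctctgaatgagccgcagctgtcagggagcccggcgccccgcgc
ITGB8: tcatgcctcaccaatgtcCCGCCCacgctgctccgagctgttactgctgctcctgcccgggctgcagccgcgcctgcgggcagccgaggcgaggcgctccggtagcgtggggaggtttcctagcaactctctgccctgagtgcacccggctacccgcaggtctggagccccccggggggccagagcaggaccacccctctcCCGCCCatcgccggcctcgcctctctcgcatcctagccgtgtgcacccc
LAMA4: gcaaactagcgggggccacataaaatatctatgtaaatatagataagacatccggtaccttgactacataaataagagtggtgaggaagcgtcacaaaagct

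The 250-base window of ITGB8 holds 2 GC boxes and those of ITGA11 and LAMA4 hold none, while that of ITGA8, the gene with the largest difference of the genes tested, holds 4. The counted model of ITGA8 begins 413 bases before the RefSeq start, so its whole window lies in the counted gene. The AP-1 motif was searched as TGANTCA and the TEAD motif as GGAATG. For the TATA box the letters were TATAAA. For the E-box they were CACGTG. Searched on both strands, none of these is in the 4 windows. A window was found for 26 of the 37 genes. Of those 26, 13 hold a GC box, 4 the TEAD letters and 1 each the AP-1, TATA box and E-box letters. Over all 35116 RefSeq windows of this length, 42.6% hold a GC box, 6.57% the AP-1 letters, 11.9% the TEAD letters, 10.7% a TATA box and 6.34% the E-box. The GC content of the windows was 71.2% for ITGA11 and ITGB8 and 48.4% for LAMA4.

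After 3 days of ICM, 10 of the 27 genes tested were lower and 3 were higher than control, where 13.2% and 8.85% of all genes tested were called in these directions (22.0% in either). The genes that fell were ITGA1, ITGA3, ITGA4, ITGA6, ITGA7, ITGA11, ITGB8, LAMA1, LAMA2 and LAMA4, and those that rose were ITGB3, ITGB5 and LAMB4. After 6 days, 11 of 29 were lower and 3 higher (ITGA2, ITGA10 and ITGB5), against 17.2% and 13.3% of all genes tested (30.5% in either direction). The genes that fell by then were 8 of the 10 from day 3, without LAMA1 and LAMA2, together with ITGA5, ITGA9 and LAMA5. The median log2 fold change of the genes tested was -0.41 after 3 days and -0.37 after 6 days, while the median over all genes was 0.01 and 0.00. Leaving out a library moved these medians to between -0.61 and -0.20 after 3 days, the latter without ICM 3 days replicate 2, and to between -0.48 and -0.21 after 6 days, the latter without control replicate 1. These comparisons share the control libraries. With library totals in place of TMM factors, 5 genes rose and 9 fell after 3 days, and the calls over all genes split into 1785 higher and 1767 lower in place of 1389 and 2067.

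In the MetaICM libraries 4 of 29 genes were lower than control (ITGA11, ITGB3, ITGB8 and LAMA4) and 3 higher (ITGA3, ITGA8 and ITGB5), where 8.99% and 7.41% of all genes tested were called (16.4% in either direction). Set against ICM 6 days, MetaICM had 6 genes higher (ITGA3, ITGA5, ITGA6, ITGA7, ITGA8 and LAMA5) and 2 lower (LAMA3 and LAMB3), against 15.7% and 12.0% of all genes (27.7% in either direction). Between 3 and 6 days of ICM, 5 genes fell (ITGA5, ITGB3, LAMA4, LAMA5 and LAMB4) and LAMA2 rose, against 4.54% and 3.53% of all genes (8.07% in either direction); 3 fell with DESeq2, without ICM 3 days replicate 1 or without ICM 6 days replicate 2. The median log2 fold change of the genes tested was -0.07 for MetaICM against control, 0.28 for MetaICM against ICM 6 days and -0.06 for 6 against 3 days. The sign of 2 of these medians turned with a library: MetaICM against control came to 0.09 without control replicate 1 (and -0.24 without control replicate 2), and 6 against 3 days to 0.05 without ICM 3 days replicate 1 and 0.03 without ICM 6 days replicate 2. With DESeq2 the median of MetaICM against control was 0.04.

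**Figure D1:**
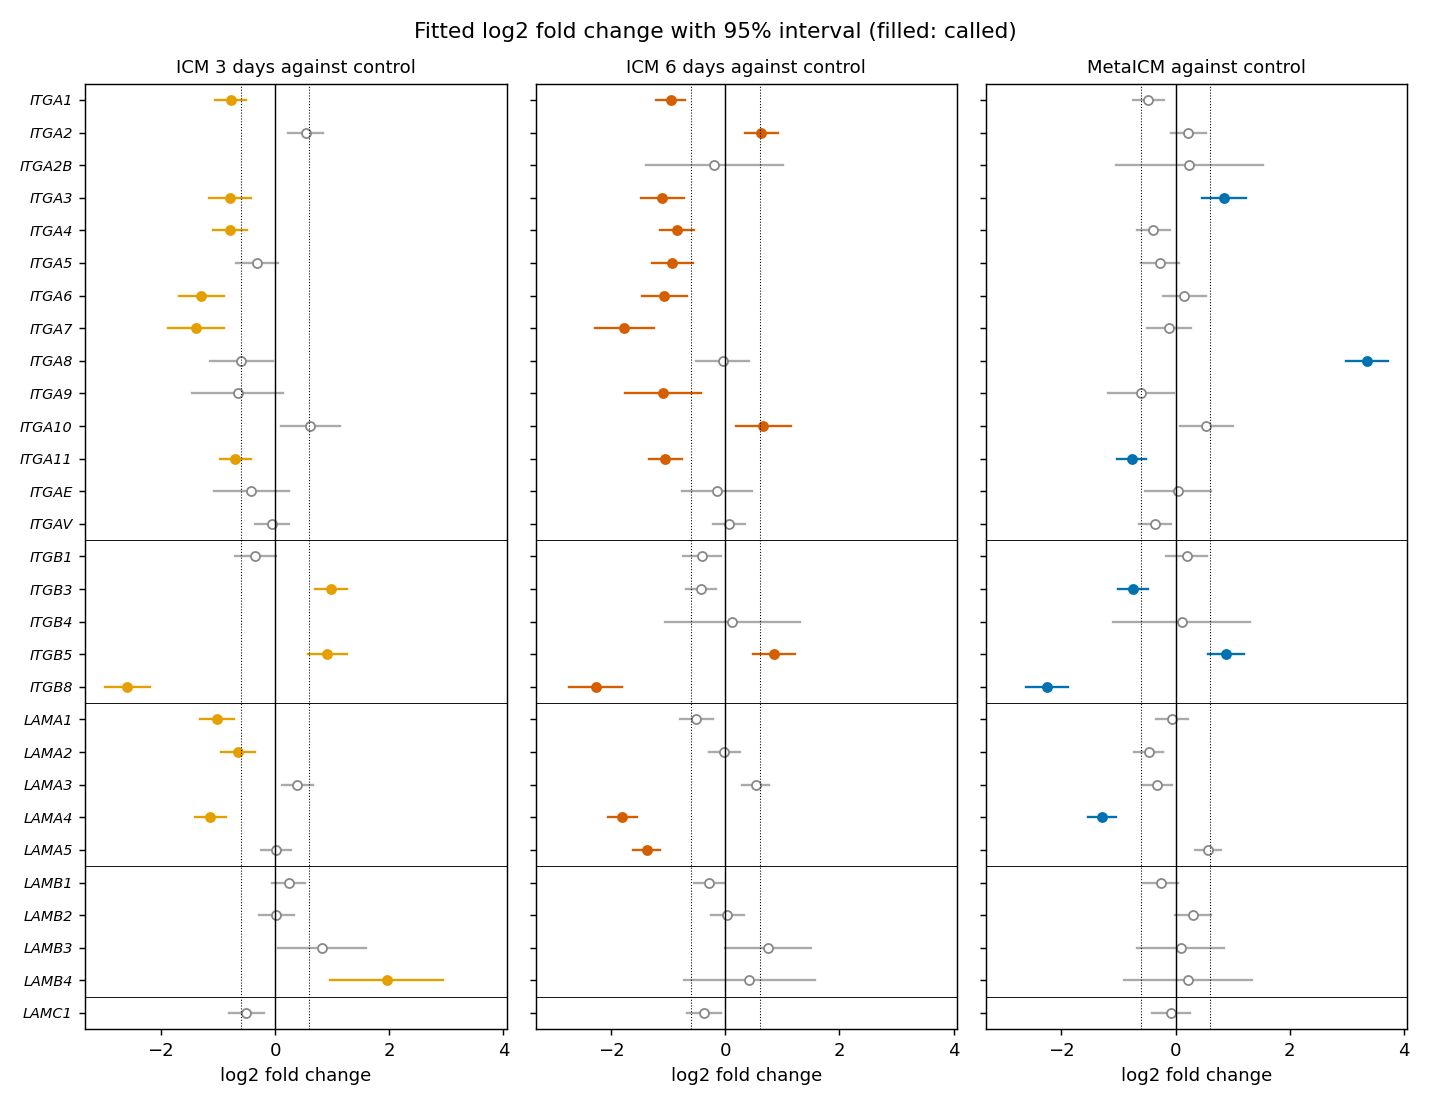
Fitted log2 fold change (x axis) of each tested gene against control after ICM for 3 days, for 6 days and in MetaICM, with 95% intervals from the edgeR fit; filled points are called genes and dotted lines mark 0.6 in each direction. Most alpha chain points lie left of 0 in both ICM panels, and in the MetaICM panel ITGA8 lies farthest right, at 3.35.

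ITGB1, LAMB1, LAMC1, ITGA5 and LAMB2 were the most abundant per length, with ITGB1 at 401 and 297 FPKM and LAMB1 at 313 and 283 FPKM in the control libraries. At the other end ITGB4 was at 0.108 and 0.0547 FPKM and LAMB4 at 0.0894 and 0.0623 FPKM, from at most 11 control counts. ITGB1 and LAMB1 were not separated by their spread, since their control ranges (297 to 401 and 283 to 313) overlapped. LAMC1 (177 to 219) lay below both and above ITGA5 (114 to 157), whose range overlapped that of LAMB2 (101 to 128). LAMA4, at 102 FPKM in both control libraries, lay within the range of LAMB2, so LAMB2 ranked above it by the control mean alone.

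**Figure D2:**
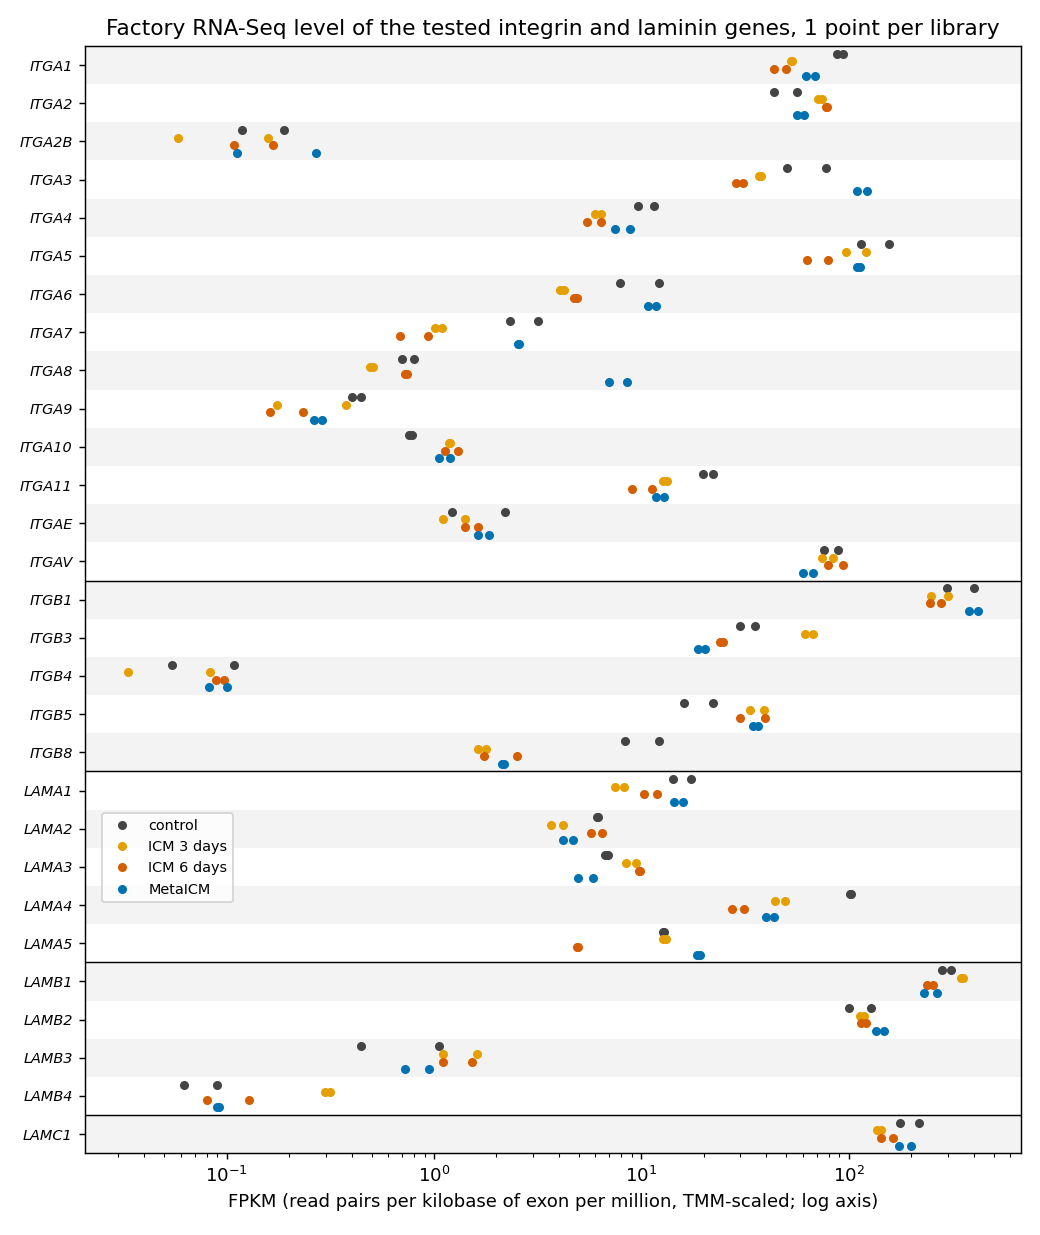
Level in FPKM (x axis, log scale) of the 29 genes tested in at least 1 comparison, with 1 point per library coloured by condition and lines between the integrin alpha, integrin beta, laminin alpha, laminin beta and laminin gamma families. ITGA8 in MetaICM, ITGB8 in control, LAMA4 in control and LAMB4 after 3 days stand apart from the other conditions of the same gene.

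All 3 laminin-binding alpha chains fell with ICM and were higher in MetaICM than after 6 days. ITGA3, a receptor chain for the laminins of epithelial and vascular basement membranes, was at 77.3 and 50.4 FPKM in control, 37.5 and 36.7 after 3 days, 30.9 and 28.6 after 6 days, and 122.5 and 109 in MetaICM. The ICM libraries lay below both controls and the MetaICM libraries above them. The log2 fold change was -0.79 ± 0.17 (SE) after 3 days (edgeR adjusted p = 0.0048), -1.11 ± 0.17 after 6 days (edgeR adjusted p = 0.000578) and 0.85 ± 0.18 in MetaICM (edgeR adjusted p = 0.00715). The control libraries set 2 of these calls, since without control replicate 1 the 3-day value was -0.44 and without control replicate 2 the MetaICM value was 0.58, both short of the fold threshold. MetaICM exceeded ICM 6 days by 1.96 ± 0.08 (edgeR adjusted p = 1.72e-14).

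ITGA6, which pairs with beta 1 or beta 4 to bind laminin, was at 12.2 and 7.92 FPKM in control, 4.05 and 4.22 after 3 days, 4.91 and 4.76 after 6 days, and 11.8 and 10.7 in MetaICM. Its change was -1.29 ± 0.18 after 3 days (edgeR adjusted p = 0.000274) and -1.07 ± 0.18 after 6 days (edgeR adjusted p = 0.00101), and the MetaICM libraries lay between the control values. ITGA7, the main laminin receptor chain of muscle, was at 3.16 and 2.33 FPKM in control, 1.09 and 1.01 after 3 days, 0.939 and 0.682 after 6 days, and 2.55 and 2.56 in MetaICM. Relative to control it changed by -1.39 ± 0.23 after 3 days (edgeR adjusted p = 0.000682) and -1.77 ± 0.23 after 6 days (edgeR adjusted p = 0.000191). Against ICM 6 days, MetaICM was higher by 1.22 ± 0.08 for ITGA6 (edgeR adjusted p = 7.79e-11) and by 1.66 ± 0.18 for ITGA7 (edgeR adjusted p = 5.9e-08). The summed level of the 6 muscle markers also fell under ICM and was higher in MetaICM than after 6 days. It was 302 to 324 FPKM in control, 43.8 to 46.3 after 3 days, 40.8 to 42.5 after 6 days and 236 to 257 in MetaICM. Unlike ITGA6 and ITGA7, the sum stayed below control in MetaICM, where DES and MYH11 were called lower. Against 6 days, MYH11 and ACTG2 were called higher in MetaICM and DES was not. Above 1 FPKM were 3 of the 6, DES, MYH11 and ACTG2, with MYOD1 at 0 and MYOG and CKM at 10 counts or fewer in every library, and their part in the result was not tested.

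The 4 collagen-binding alpha chains split, with ITGA1 and ITGA11 lower and ITGA2 and ITGA10 higher after 6 days. ITGA11, a receptor for fibrillar collagen found mainly on fibroblasts, was at 19.8 and 22.2 FPKM in control, 13.3 and 12.7 after 3 days, 11.3 and 9.05 after 6 days, and 12.9 and 11.8 in MetaICM. It was below control in all 3 conditions without overlap, with log2 fold changes of -0.69 ± 0.12 (edgeR adjusted p = 0.0014), -1.05 ± 0.13 (edgeR adjusted p = 0.000145) and -0.77 ± 0.11 (edgeR adjusted p = 0.00146).

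ITGA1 and ITGA2 are neighbours on chromosome 5 (hg19, 52083750 to 52255039 and 52285182 to 52390609), 30142 bases apart on the plus strand. ITGA1, which prefers basement membrane collagen, was at 93.9 and 87.3 FPKM in control, 52.9 and 53.5 after 3 days, 49.6 and 43.8 after 6 days, and 68.7 and 61.9 in MetaICM. ITGA2, which prefers fibrillar collagen, was at 56.6 and 43.6 FPKM in control, 74.5 and 71 after 3 days, 78.3 and 77.3 after 6 days, and 60.8 and 56.1 in MetaICM. The pair lay on opposite sides of control under ICM, with no overlap with control for either gene. ITGA1 changed by -0.77 ± 0.12 after 3 days (edgeR adjusted p = 0.000672) and -0.96 ± 0.12 after 6 days (edgeR adjusted p = 0.000119). ITGA2 changed by 0.54 ± 0.14 after 3 days, under the fold threshold, and by 0.63 ± 0.13 after 6 days (edgeR adjusted p = 0.00353). The 6-day call of ITGA2 was lost without control replicate 2 (0.46), and the 3-day value passed the threshold without control replicate 1 (0.74).

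ITGA10, a collagen receptor chain known from cartilage, was at 0.756 and 0.786 FPKM in control and 1.195 and 1.177 after 3 days. It was at 1.13 and 1.31 after 6 days and 1.193 and 1.055 in MetaICM. The 3-day difference, 0.62 ± 0.24 (edgeR adjusted p = 0.0696), was called only with library totals, the replicate block or a fit of all 8 libraries. In the main fits only the 6-day difference was called, at 0.66 ± 0.22 (edgeR adjusted p = 0.0313). It rested on 50 to 137 counts per library, and the call was lost without control replicate 1 (adjusted p = 0.0622 with edgeR), without either 6-day library (adjusted p = 0.0851 and 0.234 with edgeR) and with DESeq2 (adjusted p = 0.136).

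Among the RGD-binding alpha chains, ITGA8 separated the MetaICM libraries from all others. It encodes the partner of beta 1 that binds nephronectin and fibronectin, and it lies on chromosome 10 (hg19, 15555948 to 15762334, minus strand, 30 exon blocks). The counts were 94 and 59 in control, 77 and 51 after 3 days, 94 and 97 after 6 days, and 1200 and 1121 in MetaICM. As levels these were 0.802 and 0.701, 0.508 and 0.494, 0.725 and 0.74, and 8.53 and 6.99 FPKM. MetaICM exceeded control by 3.35 ± 0.17 (edgeR adjusted p = 6.96e-06) and ICM 6 days by 3.4 ± 0.14 (edgeR adjusted p = 2.09e-15), while neither ICM time point was called against control.

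ITGA5, the fibronectin receptor chain, was the most abundant alpha chain in control, at 157 and 114 FPKM. It was at 121 and 97 after 3 days, 79.5 and 63 after 6 days, and 114 and 110 in MetaICM. Of the comparisons against control only that at 6 days was called, with a change of -0.93 ± 0.16 (edgeR adjusted p = 0.00118). The fall from 3 to 6 days, -0.62 ± 0.11 (edgeR adjusted p = 0.000729), and the excess of MetaICM over 6 days, 0.65 ± 0.09 (edgeR adjusted p = 2.63e-06), lay near the fold threshold. They came to -0.46 and 0.49 without ICM 6 days replicate 2, and the former to -0.44 without ICM 3 days replicate 1. With DESeq2 the fall from 3 to 6 days was not called (adjusted p = 0.0575). ITGAV, the shared alpha chain of several vitronectin and latent TGF-beta receptors, was at 88.8 and 75.6 FPKM in control, 84.1 and 74.2 after 3 days, 93.5 and 79.3 after 6 days, and 67.5 and 60.3 in MetaICM, and was called in no comparison. ITGA2B, the platelet fibrinogen receptor chain, had 3 to 19 counts per library and was called nowhere.

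ITGA4 and ITGA9, whose products bind VCAM1 and tenascin C among other ligands, were lower after 6 days. ITGA4 was at 11.5 and 9.68 FPKM in control, 6.36 and 5.97 after 3 days, 6.4 and 5.45 after 6 days, and 8.8 and 7.45 in MetaICM, with a change of -0.78 ± 0.14 at 3 days (edgeR adjusted p = 0.00123) and -0.84 ± 0.13 at 6 days (edgeR adjusted p = 0.000664). This is the gene that shares a stretch of exon with CERKL. ITGA9 was at 0.401 and 0.442 FPKM in control and 0.232 and 0.162 after 6 days, from 24 to 53 counts, a change of -1.09 ± 0.3 (edgeR adjusted p = 0.0143) that came to -0.85 and was no longer called without ICM 6 days replicate 2, nor with DESeq2 (adjusted p = 0.0858). Of the 5 leukocyte alpha chains ITGAE alone was tested, at 1.1 to 2.2 FPKM in all libraries and with no call. Leukocyte markers summed to 3.62 to 4.02 FPKM in control and 8.82 to 13.3 in the treated conditions, with CD68 the only one above 1 FPKM in any library, CD3E at 0 and SPI1 and LCP1 at 10 counts or fewer in every library.

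Of the beta chains, ITGB3, ITGB5 and ITGB8 were called in at least 1 comparison and ITGB1 in none. ITGB1, the common partner of the collagen, laminin and fibronectin receptor chains, was at 401 and 297 FPKM in control, 300 and 249 after 3 days, 280 and 248 after 6 days, and 420 and 379 in MetaICM. Its difference between MetaICM and ICM 6 days was 0.60 ± 0.09, just short of the fold threshold (edgeR adjusted p = 4.59e-06), and it passed the threshold without ICM 6 days replicate 1 (0.68) or without MetaICM replicate 2 (0.67). Against control after 6 days it differed by -0.41 ± 0.15 (edgeR adjusted p = 0.0502), and was called lower only without control replicate 2 (-0.60).

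ITGB3, the beta chain of the vitronectin receptor, rose and then fell. It was at 35.3 and 29.9 FPKM in control, 66.9 and 61.6 after 3 days, 24.8 and 23.9 after 6 days, and 20.3 and 18.7 in MetaICM, and no 2 of these conditions overlapped. It was higher than control after 3 days by 0.97 ± 0.13 (edgeR adjusted p = 0.00015) and fell from 3 to 6 days by 1.40 ± 0.09 on the log2 scale (edgeR adjusted p = 2.56e-09). In MetaICM it was below control (-0.75 ± 0.12, edgeR adjusted p = 0.00214), and after 6 days its difference from control, -0.43 ± 0.12, did not reach the fold threshold.

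ITGB5, another partner of alpha V, was the gene called higher in all 3 comparisons against control. It was at 22.1 and 16.1 FPKM in control, 38.9 and 33.4 after 3 days, 39.2 and 30 after 6 days, and 36.5 and 34.4 in MetaICM. The changes were 0.91 ± 0.16 (edgeR adjusted p = 0.00103), 0.85 ± 0.17 (edgeR adjusted p = 0.00245) and 0.88 ± 0.14 (edgeR adjusted p = 0.00244). ITGB8, the partner of alpha V that activates latent TGF-beta, had the largest fall of the genes described in all 3 comparisons against control. It was at 8.3 and 12.2 FPKM in control, 1.78 and 1.62 after 3 days, 2.52 and 1.74 after 6 days, and 2.17 and 2.12 in MetaICM, with changes of -2.58 ± 0.18 (edgeR adjusted p = 8.88e-07), -2.27 ± 0.21 (edgeR adjusted p = 1.82e-05) and -2.25 ± 0.17 (edgeR adjusted p = 5.16e-05). ITGB4, the hemidesmosome chain that pairs with alpha 6, held 3 to 14 counts per library, and ITGB2, ITGB6 and ITGB7 were not tested.

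**Figure D3:**
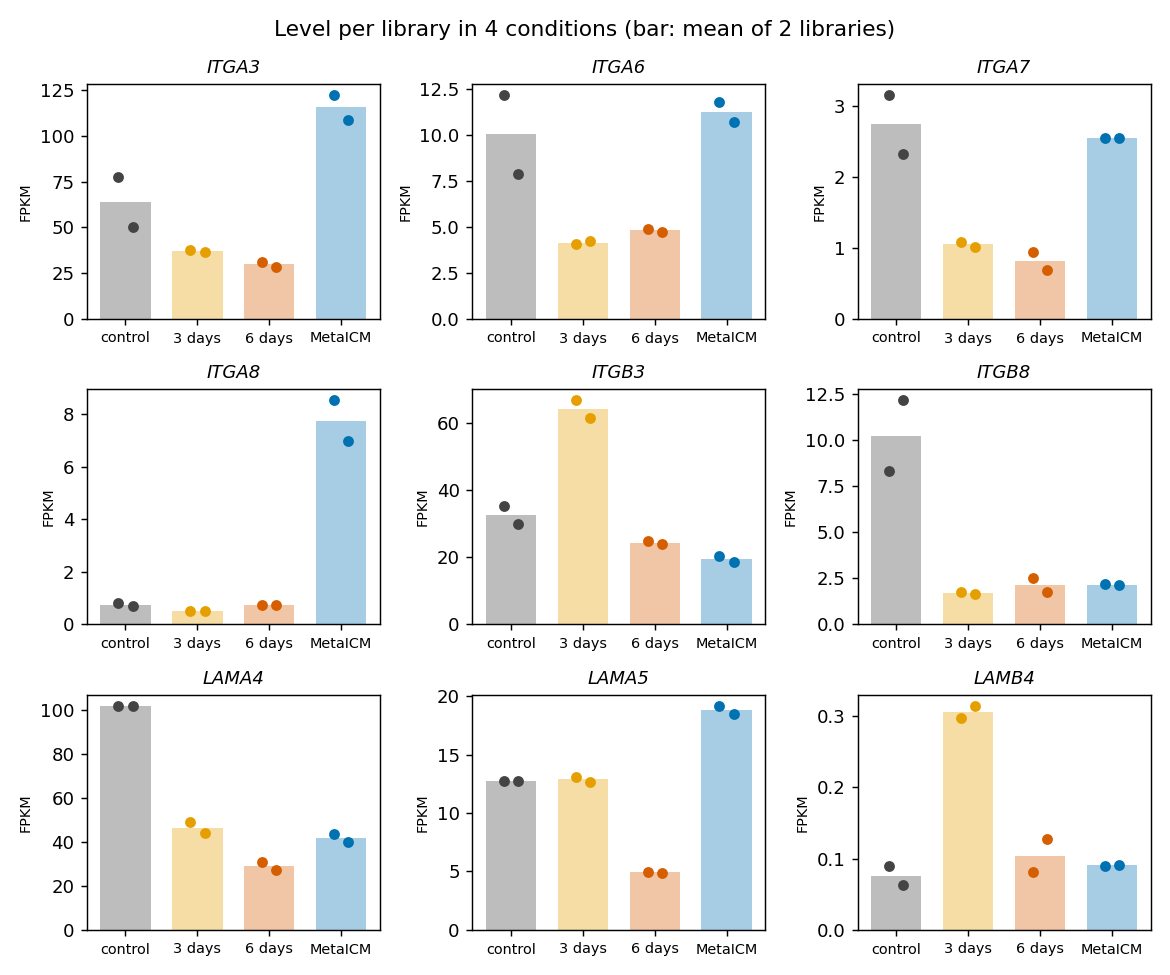
FPKM (y axis, linear from 0, own scale per panel) of 9 genes in control, ICM 3 days, ICM 6 days and MetaICM, with 1 point per library and bars at the mean of 2. ITGA3, ITGA6 and ITGA7 dip under ICM and lie within or above the control range in MetaICM, ITGB3 and LAMB4 peak after 3 days, and ITGA8 rises in MetaICM to between 6.99 and 8.53.

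The summed FPKM of a family shows how its composition shifted. Among beta chains ITGB1 held 83.6 and 85.9% in control, 72 and 73.6% after 3 days, 80.7 and 81.6% after 6 days, and 87.2 and 87.7% in MetaICM, and ITGB3 took 16.4 and 17.8% after 3 days against 7.57 and 8.43% in control. Among alpha chains ITGA5 held the largest share in control (27.3 and 30%), ITGAV after 6 days (25.1 and 26%), and ITGA3 together with ITGA5 in MetaICM, at 24.8 and 25.5% and 23.6 and 25%. These shares are descriptions of the libraries and were not tested.

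**Figure D4:**
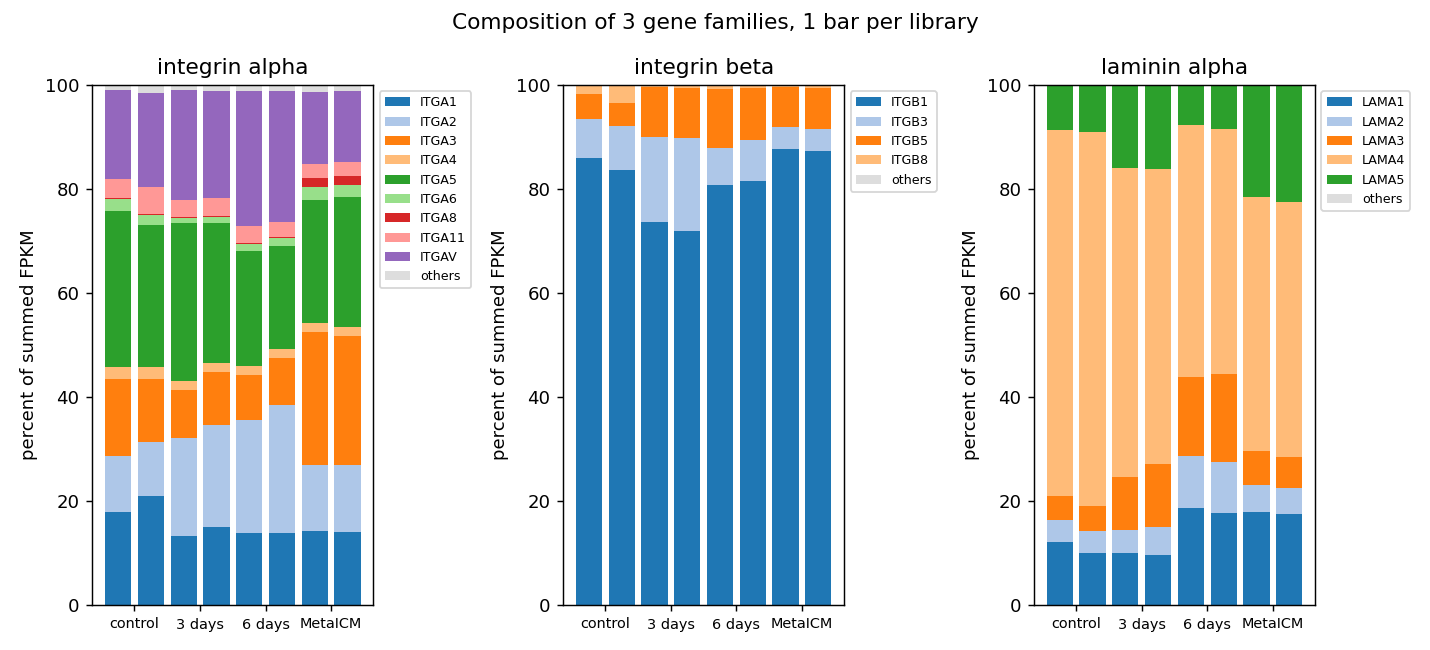
Share of the summed FPKM (y axis, percent) of the integrin alpha, integrin beta and laminin alpha families taken by each gene, with 1 bar per library in 4 conditions; genes under 1% in every library are pooled as others. LAMA4 falls from 70.3 and 72% of the laminin alpha sum in control to 47.2 and 48.4% after 6 days, and ITGB1 stays above 70% of the beta sum.

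The laminin alpha chains, which carry the integrin-binding region of the trimer, differed in which condition moved them. LAMA4, known from vascular and mesenchymal basement membranes, lies on chromosome 6 (hg19, 112429134 to 112575917, minus strand). It was at 102 FPKM in both controls, 49.1 and 44 after 3 days, 31.1 and 27.4 after 6 days, and 43.5 and 40.1 in MetaICM. It fell in all 3 comparisons, with log2 fold changes of -1.13 ± 0.13 (edgeR adjusted p = 3.7e-05), -1.80 ± 0.11 (edgeR adjusted p = 1.13e-06) and -1.29 ± 0.11 (edgeR adjusted p = 0.000112). The further step from 3 to 6 days, -0.67 ± 0.09 (edgeR adjusted p = 4.55e-05), fell just under the fold threshold without ICM 3 days replicate 1 or ICM 6 days replicate 2 (-0.59 in each). The 7 endothelial markers summed to 38.9 to 40.7 FPKM in control, 26.9 to 27.7 after 3 days, 34.1 to 40.9 after 6 days and 46.3 to 49.1 in MetaICM. Of these, TEK was the only one above 1 FPKM, and PECAM1 and CDH5 had 10 counts or fewer in every library. VWF was called higher than control after 6 days. Unlike the sum, VWF and KDR were called lower in MetaICM than after 6 days. The part of these markers in the result was not tested.

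LAMA5, the alpha chain of most adult basement membranes, was at 12.7 and 12.8 FPKM in control, 13.1 and 12.6 after 3 days, 4.93 and 4.91 after 6 days, and 19.2 and 18.5 in MetaICM. Its difference from control was 0.01 ± 0.12 at 3 days. It was lower than control after 6 days (-1.38 ± 0.11, edgeR adjusted p = 4.89e-06), and higher in MetaICM than after 6 days by 1.94 ± 0.07 (edgeR adjusted p = 5.49e-15). MetaICM exceeded control by 0.56 ± 0.10, short of the fold threshold (edgeR adjusted p = 0.00416).

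LAMA1, the embryonic chain, was lower after 3 days, at 8.2 and 7.44 FPKM against 17.4 and 14.2 in control (-1.02 ± 0.14, edgeR adjusted p = 0.00017), and was at 11.9 and 10.3 after 6 days and 15.9 and 14.3 in MetaICM. Its 6-day difference of -0.51 ± 0.13 was not called, and passed the fold threshold without control replicate 2 (-0.65) or ICM 6 days replicate 1 (-0.61). LAMA2, the chain of muscle and peripheral nerve basement membranes, was also lower after 3 days, and was at 6.17 and 6.07 FPKM in control, 3.68 and 4.18 after 3 days, 6.46 and 5.7 after 6 days, and 4.68 and 4.17 in MetaICM. Both its fall at 3 days (-0.65 ± 0.14, edgeR adjusted p = 0.00394) and its rise from 3 to 6 days (0.63 ± 0.11, edgeR adjusted p = 0.000369) were lost without ICM 3 days replicate 1, at -0.57 and 0.54, and the latter also without ICM 6 days replicate 1, at 0.55. The 3-day call was also lost with library totals (-0.57). LAMA3, a chain of the laminin of skin and other epithelia that also holds LAMB3, was at 6.9 and 6.66 FPKM in control, 8.44 and 9.4 after 3 days, 9.87 and 9.78 after 6 days, and 5.87 and 4.94 in MetaICM. It was called in MetaICM against ICM 6 days (-0.86 ± 0.08, edgeR adjusted p = 1.26e-08).

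The abundant partner chains LAMB1, LAMB2 and LAMC1, common to most laminins of connective tissue and vessels, passed the call in no comparison. LAMB1 was at 313 and 283 FPKM in control, 355 and 349 after 3 days, 255 and 237 after 6 days, and 266 and 232 in MetaICM. LAMB2 stayed between 101 and 147 FPKM in all libraries. LAMC1 was at 219 and 177 FPKM in control, 144 and 137 after 3 days, 163 and 144 after 6 days, and 200 and 175 in MetaICM, and its 3-day difference of -0.50 ± 0.14 passed the fold threshold only without control replicate 2 (-0.66).

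The low chains LAMB3 and LAMB4 rest on few counts. LAMB4, which lies 20393 bases from LAMB1 on chromosome 7, had 10 and 5 counts in control, 43 and 31 after 3 days, 10 and 16 after 6 days, and 12 and 14 in MetaICM. Its rise after 3 days was 1.96 ± 0.46 (edgeR adjusted p = 0.00485). The fall of LAMB4 from 3 to 6 days (-1.54 ± 0.39, edgeR adjusted p = 0.00695) was not called without ICM 6 days replicate 1 (-1.24), nor with DESeq2. LAMB3 had 79 and 24 counts in control, 155 and 73 after 3 days, 126 and 92 after 6 days, and 85 and 74 in MetaICM. Its ICM differences from control (0.82 ± 0.35 and 0.75 ± 0.34) were not called, and without control replicate 1 they were 1.61 and 1.54 and called, as was MetaICM (0.89). Its call in MetaICM against ICM 6 days (-0.66 ± 0.21, edgeR adjusted p = 0.0114) was lost without ICM 6 days replicate 1 (-0.41) or MetaICM replicate 2 (-0.47), with DESeq2 (adjusted p = 0.0967) and in the edgeR fit of all 8 libraries (adjusted p = 0.0985). Epithelial markers summed to 44.8 to 66.8 FPKM in control, 23.1 to 23.5 after 3 days, 22.2 to 23.2 after 6 days and 43 to 45.3 in MetaICM, with KRT8, KRT18 and KRT19 the only ones above 1 FPKM and KRT5, KRT14 and SFTPC at 10 counts or fewer, and their part in these results was not tested.

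Genes on either side of the receptors were examined as 3 lists. Of 37 tested adaptors and focal adhesion genes, 9 fell and 1 rose after 3 days, 17 fell and 4 rose after 6 days, and in MetaICM 3 fell and 4 rose against control, while 15 were higher and 1 lower in MetaICM than after 6 days. Over all genes tested, 13.2% fell and 8.85% rose after 3 days, 17.2% and 13.3% after 6 days and 8.99% and 7.41% in MetaICM, and 15.7% were higher and 12.0% lower in MetaICM than after 6 days. The median log2 fold change of the list was -0.16 after 3 days, -0.43 after 6 days and 0.07 in MetaICM against control. TLN2, a talin that links beta chains to actin, was at 15.5 FPKM in both controls and 6.26 and 6.66 after 3 days (-1.27 ± 0.12, edgeR adjusted p = 9.53e-06). LIMS2, an adaptor of the integrin-linked kinase complex, was at 10.9 and 12 FPKM in control, 4.05 and 3.96 after 3 days and 1.86 and 2.43 after 6 days, and TGFB1I1, a paxillin relative, was at 46.8 FPKM in both controls and 11.5 and 12.6 after 6 days. These were the largest falls of the list. SHARPIN, an inhibitor of integrin activation, was called higher than control after 3 days, after 6 days and in MetaICM. It was at 19.4 and 15.8 FPKM after 3 days and 17.1 and 17.9 in MetaICM, against 10.8 and 10.3 in control. The 3-day call was lost without ICM 3 days replicate 1 (0.56), and the MetaICM call without MetaICM replicate 2. KANK1, which binds talin, and FERMT1, a kindlin, were the largest rises after 6 days (0.85 ± 0.13, edgeR adjusted p = 0.000449, and 0.88 ± 0.21, edgeR adjusted p = 0.00778), and FERMT1 also rose in MetaICM (0.67 ± 0.19, edgeR adjusted p = 0.024). Both FERMT1 calls depended on a library: the 6-day value was not called without ICM 6 days replicate 1 (adjusted p = 0.13 with edgeR), nor the MetaICM value without either MetaICM library (adjusted p = 0.188 and 0.119 with edgeR) or with DESeq2 (adjusted p = 0.0739). FERMT2, the main kindlin of fibroblasts, and LIMS1 were lower in MetaICM by 0.80 ± 0.11 and 0.74 ± 0.11 on the log2 scale (edgeR adjusted p = 0.00107 and 0.00157). The fall of FERMT2 was not particular to MetaICM, since it was also called lower than control after 3 and after 6 days. LIMS1 was called against control at neither time, and both were called lower after 6 than after 3 days.

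Of 23 tested basement membrane partners and other laminin receptors, 7 fell and 2 rose after 3 days, 10 fell and 3 rose after 6 days, and 4 fell in MetaICM, beside 13.2% and 8.85%, 17.2% and 13.3%, and 8.99% of all genes. In edgeR 0 were called higher in MetaICM, beside 7.41% of all genes. DESeq2 called 1 higher, beside 962 of its 23390 genes. At an unadjusted edgeR p under 0.05, 4 were higher and 8 lower. The share over all genes is not given, so these 2 numbers have no background to be set against. The median log2 fold change was -0.26 after 3 days, -0.41 after 6 days and -0.17 in MetaICM. The paralogs NID1 and NID2, nidogens that join laminin to collagen IV, moved apart. NID1 was at 46.6 and 49.9 FPKM in control, 14.6 in both libraries after 3 days, 12 and 10.8 after 6 days and 27.4 and 26.5 in MetaICM, and NID2 at 204 and 155 in control, 516 and 474 after 3 days and 737 and 694 after 6 days. The change after 3 days was -1.73 ± 0.12 for NID1 (edgeR adjusted p = 6.99e-07) and 1.46 ± 0.15 for NID2 (edgeR adjusted p = 2.35e-05). COL15A1, a basement membrane collagen, had the largest fall of the list, from 68.4 and 67 FPKM to 9.08 and 8.49 after 3 days and 7.83 and 7.23 after 6 days. COL7A1, the anchoring fibril collagen, rose at 3 days (180 and 168 FPKM against 56.5 and 40.2), NTN4, a laminin-related netrin, rose at 6 days (63.1 and 54.5 against 38.2 and 37.7; not called without ICM 6 days replicate 1, at 0.53), and SMOC1, a secreted matrix-binding protein, was lowest relative to control in MetaICM (1.87 and 1.98 against 11.7 and 10.3).

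Of 26 tested integrin ligands (25 in MetaICM against control), 12 fell and 1 rose after 3 days, 16 fell and 1 rose after 6 days, and 5 fell in MetaICM, beside the same 13.2% and 8.85%, 17.2% and 13.3%, and 8.99% of all genes. In edgeR 0 were called higher in MetaICM, beside 7.41% of all genes. DESeq2 called 1 higher, beside 962 of its 23390 genes. At an unadjusted edgeR p under 0.05, 6 were higher and 10 lower. The share over all genes is not given, so these 2 numbers have no background to be set against. The median log2 fold change was -0.59 after 3 days, -0.80 after 6 days and -0.22 in MetaICM, and the ligand list shares COL1A1, COL1A2 and COL3A1 with the fibroblast markers. VCAM1, the counter-receptor of alpha 4, was at 46.7 and 52.9 FPKM in control and 4.65 and 4 after 3 days (-3.52 ± 0.14, edgeR adjusted p = 1.72e-08). ICAM1, the counter-receptor of leukocyte integrins, was at 14.2 and 12.2 FPKM in control and 1.25 and 1.68 after 6 days. POSTN, a matrix ligand of alpha V integrins, fell from 65.8 and 71.3 FPKM to 12 and 10.6 after 6 days and was at 5.7 and 5.93 in MetaICM, its lowest level, where TGFB3 was also lower (0.661 and 0.678 against 1.26 and 1.71), a call lost without MetaICM replicate 2 (adjusted p = 0.055 with edgeR). SPP1 (osteopontin) was the ligand that rose: it had no count in either control library and 200 and 142 counts after 3 days, and was at 5.07 and 5.28 FPKM after 3 days and 10.9 and 12.9 after 6 days.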

How the data were processed

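Per the file headers, the authors counted read pairs on RefSeq exons (hg19) with featureCounts 1.6.3, without strand, using primary alignments with both ends mapped and no chimeric pairs; the deposited values are raw counts, with nothing normalized. The submitters' processing notes name STAR 2.6.0c and GRCh37. The study's own nascent values rest on intronic reads, which were not analysed here.

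The 8 libraries held 12095123 to 23166405 counts, and 3 counts in the shallowest library equal 0.248 CPM. Genes were filtered with filterByExpr (minimum count 10), scaled by TMM and tested with the two-sided quasi-likelihood test of edgeR 4.0.16 (R 4.3.3), with a separate fit of 4 libraries per comparison and Benjamini-Hochberg adjustment over all genes tested. A call needed an adjusted p under 0.05 and an absolute log2 fold change over 0.6. The study's RUVs step was not run, because that package was not installed. With 2 libraries against 2, an exact permutation test of a single gene cannot reach 0.05. CPM and FPKM were computed with TMM-scaled library sizes over all 8 libraries, FPKM per kilobase of exon. Fits were tested on simulated counts with 200 changed genes. Alternatives were DESeq2 1.42.0, other scalings, filters and thresholds, a fit of all 8 libraries, the replicate number as a block and leaving out each library. Of the genes found by symbol, 1 is not reported here and is left out of every count of integrin and laminin genes but that of the rule; all others could be named, and of each context list, the 2 called genes with the largest change in each direction were named for each comparison against control. Genes and lists were chosen with earlier results of these data known, so no list was tested as a set. In the ligand list CYR61 and CTGF were matched to CCN1 and CCN2.

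Replicate numbers gave no steady sign of pairing: deviations from the condition means correlated between -0.16 and 0.27 over the 6 pairs of conditions. The highest value was for control with ICM 3 days. With 2 libraries per condition these correlations cannot exclude pairing. No block was used in the main fits.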

Additional observations from a re-analysis of the deposited data

How the results depend on the processing

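Over 17 alternative settings, 1843 log2 fold changes were set against the main fit. Of these, 1765 kept their call or its absence, 27 lost the call, 51 gained one and 0 called values reversed. An adjusted p under 0.01 and no minimum fold change reused the main values and changed only the threshold. Reversals were not counted where neither fit called the gene, and some such values changed sign. On leaving out a library, ITGAE after 3 days ranged from -0.79 to 0.035. ITGA6 in MetaICM against control ranged from -0.12 to 0.51. The genes higher after 3 days numbered 5 in place of 3 with library totals, with the replicate block and with no minimum fold change, and 3 to 5 when a library was left out, 5 without control replicate 1. Without a minimum fold change, 2 in place of 1 gene rose from 3 to 6 days, 8 in place of 5 fell over that interval, 7 in place of 4 were lower in MetaICM than control, and against ICM 6 days 14 in place of 6 were higher and 6 in place of 2 lower in MetaICM. For MetaICM against ICM 6 days, DESeq2, an adjusted p under 0.01 and a fit of all 8 libraries each gave 1 lower gene in place of 2, as did leaving out ICM 6 days replicate 1 or MetaICM replicate 2 (range 1 to 2). Leaving out a library gave between 0 and 2 genes that rose from 3 to 6 days: 0 without ICM 3 days replicate 1 or ICM 6 days replicate 1, and 2 without ICM 6 days replicate 2. Between 3 and 5 genes fell over that interval when a library was left out, 3 without ICM 3 days replicate 1 or ICM 6 days replicate 2, and 3 fell with DESeq2. The other counts stayed within 1.5 times their value. The cause of these changes was not tested, other than where a lower fold threshold admits more genes.

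With the replicate number as a block, 4 values gained a call and none was lost. The gains were ITGA10 and LAMB3 after 3 days, LAMB3 after 6 days and ITGB1 in MetaICM against ICM 6 days. Over all genes, the block gave 3915 calls after 3 days in place of 3456. It was not used in the main fits, since the numbers gave no steady sign of pairing. Low counts limit LAMB4, LAMB3, ITGA9, ITGA10, ITGA2B and ITGB4 most, and reads carried no molecular identifiers. Dropping 1 library leaves a condition with 1, whose spread is then assumed equal to that of the other condition.

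Over all genes, the calls for MetaICM against control numbered 2609, against 1532 at an adjusted p under 0.01, 4294 without a minimum fold change, and 1049 without MetaICM replicate 2, 1623 without MetaICM replicate 1 and 4086 without control replicate 1. Without a minimum fold change, calls over all genes were 3061 in place of 1278 from 3 to 6 days and 8576 in place of 4447 for MetaICM against ICM 6 days. After 3 days they were 2301 in place of 3456 without ICM 3 days replicate 1. Of 390 recomputed counts of the 3 context lists 38 moved by over 1.5 times, 16 of them without a minimum fold change and 9 on leaving out a library. Of 375 values of their named genes 9 lost the call and 0 reversed.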
